A study of Mus musculus with 16 samples.

Results

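Live heterozygous newborn pups were set against live wild type pups in 8 of the 16 RNA sequencing libraries of the study, 4 libraries of each genotype. All pups were newborn C57BL/6J background mice born to Man1a2 heterozygous parents, and were followed for 24 h with checks 8 h apart. The parents drank N-acetyl cysteine (NAC, 1 g/kg body weight), a glutathione precursor used as an antioxidant, or water as placebo, from the week before mating to birth. Heterozygous pups carried 1 Man1a2 allele without exon 2, and wild type pups carried none. Each library was made from RNA pooled over 3 experiments, so that 1 library stood for several pups and no group of a genotype, treatment and tissue label was sequenced more than once.

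The 8 libraries were chosen by their measured marker content, which did not always follow the tissue label. A library counted as lung content where Sftpc, the surfactant protein of alveolar type 2 cells, was at least 1000 CPM (counts scaled to a common library total) and Alb, hepatocyte albumin, was under 1000 CPM. It counted as liver content where Alb was at least 50000 CPM. The NAC lung and placebo liver libraries of both genotypes had lung content (Sftpc from 4446 to 11758 CPM, Alb from 16.8 to 135 CPM). The placebo lung and NAC liver libraries of both genotypes had liver content (Alb from 69921 to 96045 CPM, Sftpc from 0.2 to 3.1 CPM). All 4 placebo libraries therefore went against their tissue label. The same mismatch was shared by both genotypes, so each heterozygous library was paired with the wild type library of the same treatment, label and content. Where the mismatch arose is not known. Genotype and treatment were taken from the same labels and were not checked. The pairs are called here by their labels: the NAC lung and placebo liver pairs have lung content, and the placebo lung and NAC liver pairs have liver content. Just inside the Alb minimum but not from live pups was the NAC liver library of dead null pups at 51003 CPM, and the placebo lung library of dead null pups met neither definition (Sftpc 5553 CPM, Alb 9280 CPM). Because Sftpc and Alb chose the libraries, their levels are a description here.

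Man1a2 encodes a Golgi mannosidase that trims mannose residues from N-linked glycans, a step on the way from high-mannose to complex glycans on secreted and membrane proteins. Lung and liver around birth switch from placental supply to breathing and feeding, and transcripts of oxygen sensing, growth signalling, haematopoiesis and metabolism are known to move in those hours. In bulk RNA, fewer cells of a type and less RNA per cell cannot be told apart.

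The part of Man1a2 that the mutant allele lacks is shown because it limits what a count per gene can say of genotype. Man1a2 lies on chromosome 3 of GRCm38 (100562208 to 100685503, minus strand). Exon 2 of its longest transcript, which has 13 exons, spans chr3:100656019-100656274 and has 256 bases. It makes up 3.21% of the 7969 bases of that transcript. Its length leaves a remainder of 1 after division by 3, and its GC content is 44.1%. In the GENCODE transcript sequence for GRCm38 it reads, 5′ to 3′ on the strand of the gene, all in lower case because the whole exon is the deleted part:
Man1a2 exon 2: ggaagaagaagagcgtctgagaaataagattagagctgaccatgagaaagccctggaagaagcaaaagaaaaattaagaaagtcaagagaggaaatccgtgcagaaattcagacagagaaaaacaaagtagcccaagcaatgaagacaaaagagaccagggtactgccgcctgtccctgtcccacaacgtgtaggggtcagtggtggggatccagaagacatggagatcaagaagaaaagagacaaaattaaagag

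Library totals ran from 7236865 to 15813449 counts (median 13018473), and 14186 gene entries averaging 1 CPM or more were tested. The 45S ribosomal precursor Rn45s took 26.2% and 19.7% of the counts in the heterozygous NAC lung and placebo liver libraries, against 9.69% and 4.05% in their wild type partners. In the placebo lung pair it took 4.54% in the heterozygous and 1.99% in the wild type library, and in the NAC liver pair it took 1.24% in both. Levels below are CPM after trimmed mean of M values (TMM) scaling, pair values are log2 ratios of heterozygous over wild type with a prior count of 2, and fitted values are log2 fold changes from edgeR's quasi-likelihood test with pair as a block. Scaling by library size alone would move every log2 ratio by -0.37 in the NAC lung pair, -0.27 in the placebo liver pair, 0.01 in the placebo lung pair and 0.14 in the NAC liver pair.

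The targeted gene was not lower in all heterozygous libraries. Man1a2 stood at 48.3 CPM in the wild type and 42.4 CPM in the heterozygous NAC lung library, and at 76.6 and 65 CPM in the placebo liver libraries. In the placebo lung libraries it stood at 34.8 CPM in the wild type and 48.6 CPM in the heterozygous library, and in the NAC liver libraries at 30.0 and 52.5 CPM. It was thus lower in the heterozygous library of both lung-content pairs (log2 ratios -0.19 and -0.23) and higher in both liver-content pairs (0.48 and 0.80), with overlapping genotype ranges. Over 4 pairs its log2 fold change was 0.21 ± 0.19 (SE, adjusted p = 0.84). The difference between the contents was 0.85 ± 0.23 with an unadjusted p of 0.00581 and an adjusted p of 0.63. A whole-gene count also takes in transcripts without exon 2, so these levels do not check the genotype labels.

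The other genes of N-glycan processing moved little. Of 25 genes tested, which include Man1a2, 2 (8%) were lower and 0 were higher in all 4 pairs. Among all genes 8.28% were lower and 7.25% higher throughout. Under library size scaling 5 (20%) of the 25 were lower in all 4 pairs, against 16.5% of all genes. The median log2 fold change of the list was -0.03. The closest relatives, named for their kinship and after their values were seen, are Man1a, a Golgi mannosidase of the same class (log2 ratios 0.29, -0.25, -0.36 and -0.27 in the order NAC lung, placebo liver, placebo lung and NAC liver, used from here on), and Man1c1 (0.00, -0.12, -0.06 and -0.42). Prkcsh, the regulatory subunit of glucosidase II, had the largest fold change of the list (-0.34 ± 0.13, adjusted p = 0.79). Mgat5, which adds a branch to complex glycans, had ratios of 0.29, -0.36, -0.03 and -0.94, and its fold change was -0.27.

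**Figure D1:**
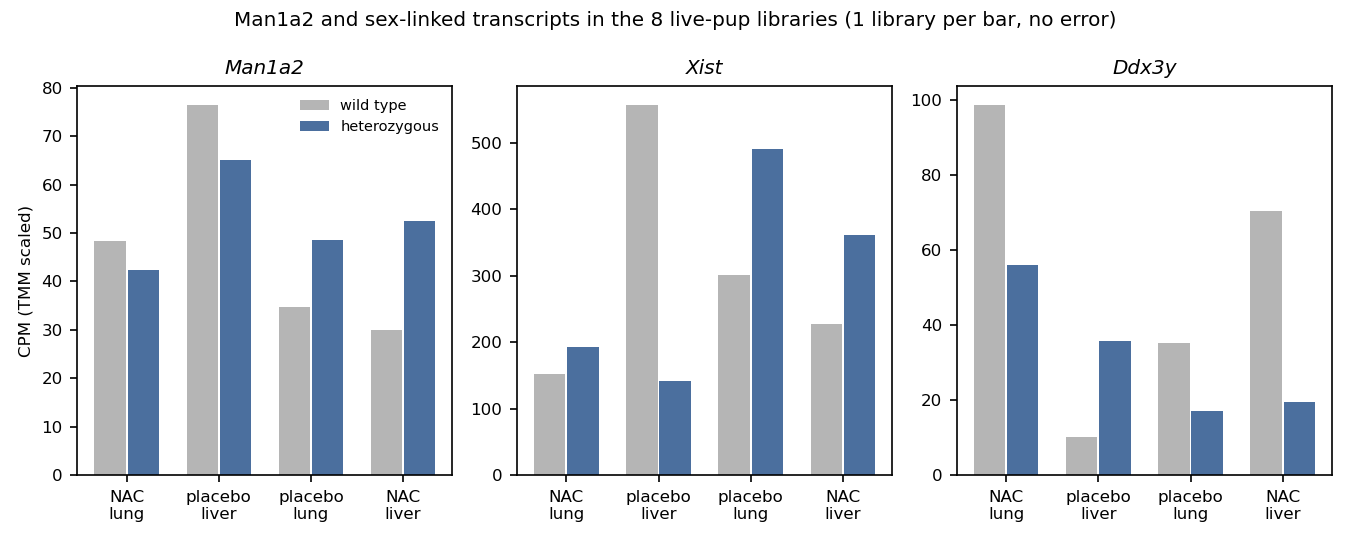
Levels of Man1a2, of the X-inactivation transcript Xist and of the Y-linked gene Ddx3y in CPM (linear axes from 0), with wild type libraries in grey and heterozygous libraries in blue for each of the 4 pairs; each bar is 1 library, so no error is drawn. Man1a2 ran from 30.0 to 76.6 CPM in wild type and from 42.4 to 65 CPM in heterozygous libraries, and the placebo liver pair stands out with Xist at 558 CPM in wild type and 142 CPM in heterozygous.

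Over all 4 pairs, no gene separated heterozygous from wild type pups once p-values were adjusted over all genes, and the lead genes below are given as values that did not pass. By edgeR's quasi-likelihood test 0 of 14186 genes (0%) had an adjusted p under 0.05, 842 (5.94%) had an unadjusted p under 0.05, and DESeq2 called 23 genes (10 higher, 13 lower in heterozygous). Of all genes, 2.28% had an unadjusted p under 0.05 and were higher, and 3.66% were lower. The log2 ratio was above 0 in all 4 pairs for 7.25% of genes and under 0 for 8.28%. 0% of genes differed 2-fold or more the same way in all 4 pairs. In simulated counts, 200 genes averaging 10 CPM or more were changed 4-fold in all pairs alike, with the same spread for every gene. The same fit recovered 200 at a biological coefficient of variation of 0.2 and 167 at 0.4. Smaller changes, changed genes under 10 CPM and effects that differ between pairs were not simulated, so the power to call them is not known.

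Lower in heterozygous libraries of all 4 pairs, with the smallest unadjusted p-values, were Fgf23, Mthfd2, Slc2a1, Zcchc5, Hsd3b6, Gpx3, Zbtb8b and Chil3. Slc2a1 encodes a widely expressed glucose transporter that is induced by low oxygen and lies on chromosome 4 (119108711 to 119137983), where an exon of Gm12868 overlaps it on the other strand. Wild type and heterozygous levels were 89.5 and 59.2 CPM in the NAC lung pair, 23.1 and 15.6 CPM in the placebo liver pair, 51.9 and 25.8 CPM in the placebo lung pair, and 202 and 99.4 CPM in the NAC liver pair. Every heterozygous library was under its partner, while the ranges of the genotypes overlapped. The fold change was -0.80 ± 0.13 (unadjusted p = 0.000279, adjusted p = 0.58).

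Mthfd2, a mitochondrial enzyme of the folate cycle that proliferating and embryonic cells use, lies on chromosome 6 (83305691 to 83325908). Its levels were 3.44 and 2.00 CPM, 4.30 and 2.47 CPM, 33.5 and 17.0 CPM, and 64.4 and 31.4 CPM in wild type and heterozygous libraries of the same 4 pairs. The ratios were close to each other, from -0.74 to -1.03, although levels were far higher in liver-content libraries. The fold change was -0.94 ± 0.14 (unadjusted p = 0.000144, adjusted p = 0.58).

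Gpx3, the secreted glutathione peroxidase of plasma, lies on chromosome 11 (54902453 to 54910377). Its levels were 733 and 465 CPM in the NAC lung pair, 145 and 80.6 CPM in the placebo liver pair, 30.7 and 18.8 CPM in the placebo lung pair, and 61.0 and 22.2 CPM in the NAC liver pair. Heterozygous libraries were lower throughout, most so in the NAC liver pair (log2 ratio -1.45). Its fold change was -0.91 ± 0.16 (adjusted p = 0.58), while the 23 tested genes of the glutathione and NRF2 list had a median of 0.07 with 2 higher and 3 lower in all 4 pairs. Slc7a11, the cystine importer, had 25 and 11 counts in wild type and heterozygous NAC lung libraries, 86 and 12 in placebo liver libraries, and at most 7 in liver-content libraries. Counts given here and below are raw. Totals after TMM scaling were 11035867 in wild type and 7008902 in heterozygous NAC lung libraries. In placebo liver libraries they were 18595450 and 11315452, so raw counts overstate how much lower Slc7a11 was.

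Chil3, a chitinase-like protein secreted by macrophages and neutrophil precursors, lies on chromosome 3 (106147554 to 106167564). That is the chromosome of Man1a2 (100562208 to 100685503), but outside the 5 Mb window around Man1a2 described below. Wild type and heterozygous levels were 44.8 and 18.3 CPM, 18 and 7.60 CPM, 112 and 49.1 CPM, and 210 and 171 CPM. The first 3 pairs had nearly the same ratio (-1.29, -1.23 and -1.19) and the NAC liver pair a smaller one (-0.30). Its adjusted p was 0.68 over 4 pairs.

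Zbtb8b, a zinc finger gene on chromosome 4 (129425765 to 129440853), fits the same outline at lower levels. It stood at 7.52 and 1.00 CPM, 9.84 and 2.56 CPM, 2.72 and 0.63 CPM, and 9.73 and 4.90 CPM. Zcchc5, a zinc finger gene of retrotransposon origin, ranged from 2.27 to 9.64 CPM in wild type and from 0.63 to 1.64 CPM in heterozygous libraries. Its genotype ranges did not overlap, and its adjusted p was 0.58.

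The remaining lower genes rested on liver-content libraries. Hsd3b6, a steroid dehydrogenase of chromosome 3 (98805504 to 98814443), had 99 and 14 counts in the placebo lung pair and 299 and 114 counts in the NAC liver pair, and at most 1 count in lung-content libraries. Fgf23, a phosphate-regulating hormone, was tested only because of 1 library and is given as a description, although its p-value was the smallest (1.04e-05, adjusted p = 0.15). It had 157 counts in the wild type NAC liver library and 2 in its heterozygous partner, a ratio of 89.9 with a 95% counting interval from 24.5 to 749. It had at most 7 counts in the other 6 libraries, and its mean over the 7 libraries without the high one was 0.15 CPM, under the minimum for testing.

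Higher in heterozygous libraries of all 4 pairs, with the smallest unadjusted p-values, were 4931408D14Rik, Morf4l1-ps1, Tmem181b-ps, Acot4, Ces1g, Il15ra, Akr1d1 and Leap2. Il15ra, the receptor chain that presents interleukin 15, lies on chromosome 2 (11705290 to 11734317) and stood at 2.27 and 3.28 CPM, 1.45 and 3.45 CPM, 22 and 32.3 CPM, and 10 and 19.9 CPM in wild type and heterozygous libraries. The heterozygous library was higher in each pair, and the fold change was 0.82 ± 0.18 (unadjusted p = 0.00238, adjusted p = 0.79).

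The pseudogene Morf4l1-ps1 on chromosome 16 (24529394 to 24530362) showed the widest ratio. It had 8, 3, 9 and 8 counts in the wild type libraries and 58, 134, 207 and 11 in the heterozygous ones, in the order of pairs given above. Its genotype ranges did not overlap either, but the heterozygous NAC liver library was close to the wild type ones (ratio 0.22). Tmem181b-ps, a pseudogene on chromosome 17 (6438524 to 6467022), stood at 14.6 and 27.3 CPM, 12.4 and 28.9 CPM, 3.84 and 11.9 CPM, and 4.77 and 6.13 CPM. Both resemble their parent genes in sequence, so how reads were divided among copies is uncertain.

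The others were liver transcripts near 0 in lung-content libraries. Akr1d1, the bile acid synthesis enzyme that reduces the steroid ring, stood at 175 and 266 CPM in the placebo lung pair and 94.3 and 221 CPM in the NAC liver pair, and at 4 counts or fewer in lung-content libraries. Leap2, a liver peptide that opposes ghrelin signalling, stood at 24.4 and 61.9 CPM and at 17.2 and 30.1 CPM, with at most 2 counts in lung-content libraries. Acot4 and Ces1g, enzymes of lipid and ester hydrolysis, had ratios of 0.72 and 1.51 and of 0.70 and 1.67 in those 2 pairs.

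**Figure D2:**
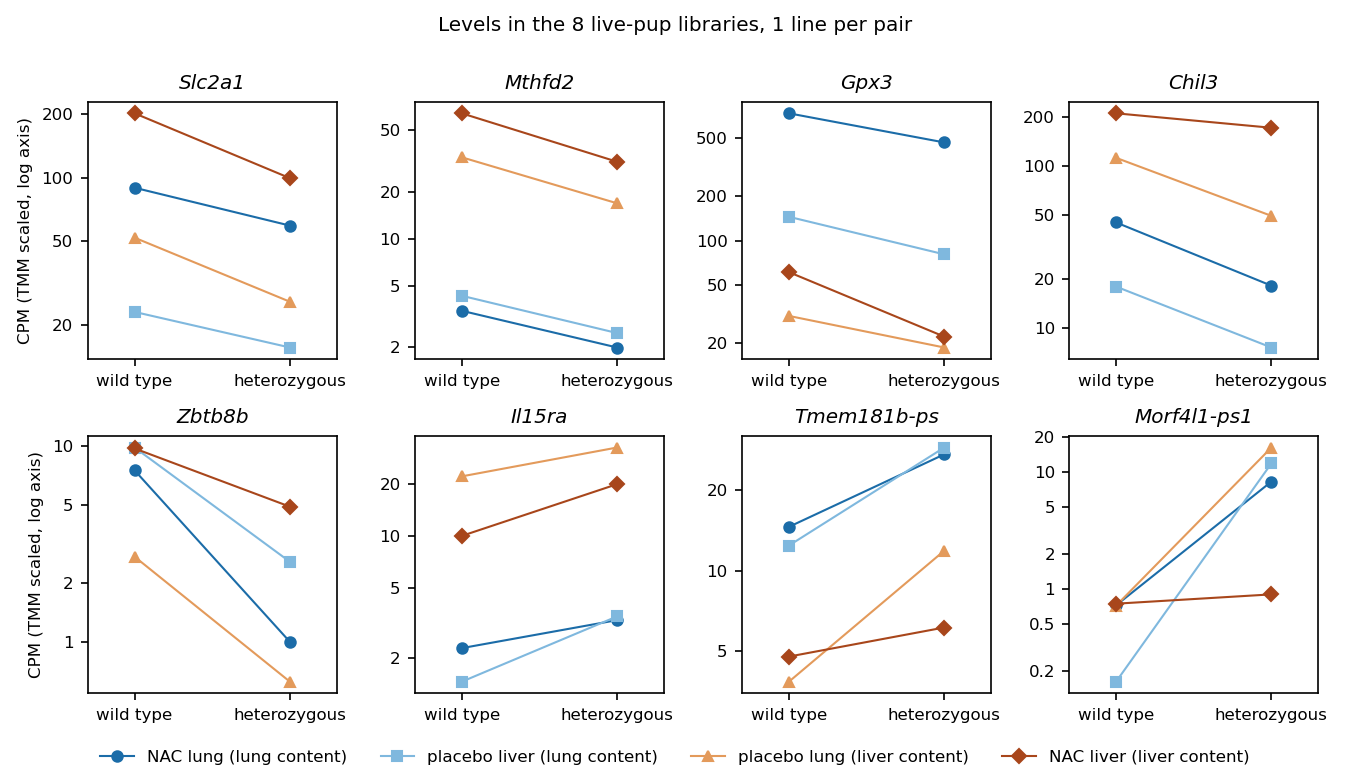
Levels of 8 genes with a small unadjusted p over 4 pairs, in CPM on log axes, with a line from the wild type to the heterozygous library of each pair (blue, lung content; orange and brown, liver content). Each line of Slc2a1, Mthfd2, Gpx3, Chil3 and Zbtb8b slopes down and each line of Il15ra, Tmem181b-ps and Morf4l1-ps1 slopes up, while pairs of one gene differ in level by as much as 733 against 30.7 CPM (wild type Gpx3).

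Among gene groups, between 40% and 44.4% of the immediate early, hypoxia, interferon and macrophage genes were lower in all 4 pairs, and 50% of proteasome subunits were higher (0 under library size scaling), beside the 8.28% and 7.25% of all genes given above. Similar shares were found for 10 biliary epithelium genes, of which 40% were lower (0 under library size scaling), and for 12 genes of bile acid and sterol transport, of which 41.7% were higher and 16.7% lower. In lung-content libraries 3 to 8 of the 16 listed transport genes were at 0. Abcb11, among those higher, had 1 and 4 counts in the wild type and heterozygous NAC lung libraries and 0 and 5 in the placebo liver libraries. Of 16 lung mesenchyme and matrix genes, 5 (31.2%) were lower and 0 higher in all 4 pairs. Under library size scaling 5 were lower as well, beside 16.5% of all genes. In the placebo lung pair 11 of these 16 genes were higher. No member of any list passed edgeR's adjusted test, although DESeq2 called some, Slc2a1, Gpx3 and Chil3 among them, so the counts below are descriptions. Of 20 immediate early genes, which are induced within minutes of a stimulus, 8 were lower and 0 were higher in all 4 pairs, and the median fold change was -0.96. These 8, named after their values were seen, were Btg2, Fos, Fosb, Junb, Nr4a1, Dusp1, Ier3 and Klf4. Fosb stood at 42.0 and 2.85 CPM in the NAC lung pair and at 6.27 and 0.25 CPM in the NAC liver pair. In the placebo pairs it stood at 1.34 and 1.15 CPM and at 0.16 and 0.08 CPM, so that the large ratios came from NAC pairs. Fos had ratios of -2.40, -0.60, -0.20 and -4.53 (unadjusted p = 0.0154, adjusted p = 0.79).

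Of 17 hypoxia targets tested, 7 were lower and 0 higher in all 4 pairs, with a median fold change of -0.51. Ankrd37, an induced target of the hypoxia-inducible factors, had ratios of -0.74, -2.43, -0.64 and -2.40. Hif3a, an inhibitory paralog of that family, had ratios of 0.42, -1.91, -1.92 and -1.59. Adm, the vasodilator peptide adrenomedullin, had ratios of 0.16, -1.47, -0.57 and -2.14. Hif1a itself, which is regulated mainly at the protein, had ratios of 0.23, 0.06, -0.08 and -0.19. Scaling by library size alone raised the count of lower genes to 12, against 16.5% of all genes under that scaling.

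Of 18 interferon response genes, 8 were lower and 0 higher in all 4 pairs, and the count was 8 under library size scaling as well. Isg15, a ubiquitin-like protein induced by interferon, had ratios of -0.74, -0.59, -1.91 and -0.86 (fold change -1.08, unadjusted p = 0.00147, adjusted p = 0.74). Rsad2, the antiviral enzyme viperin, had ratios of -0.45, -0.12, -1.70 and -0.91. The list was lowest in the NAC lung pair, with a median ratio of -0.75.

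Macrophage genes went both ways. Of 16, 7 were lower in all 4 pairs and 1, Vsig4, was higher. Under library size scaling 5 (31.2%) were lower in all 4 pairs, against 16.5% of all genes. In the placebo lung pair 8 were higher and 8 lower, with a median of -0.01. Marco, a scavenger receptor of alveolar macrophages, had ratios of -1.58, -0.80, -0.26 and -0.05, and Mpeg1, a pore-forming macrophage protein, had ratios of -1.02, -0.40, -0.48 and -0.23. Vsig4, a complement receptor of resident macrophages, stood at 32.3 and 39.1 CPM in the placebo lung pair and 12.7 and 28.3 CPM in the NAC liver pair, with at most 2 counts in lung-content libraries.

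Proteasome subunits differed by small amounts, in a direction that depended on the scaling. Of 18 core and regulatory subunits, 9 were higher and 0 lower in all 4 pairs with a median fold change of 0.15, while 6 were lower in the placebo liver pair and 3 in the NAC lung pair. Under library size scaling 0 were higher in all 4 pairs, against 1.23% of all genes, and the medians of the NAC lung and placebo liver pairs turned to -0.16 and -0.21. Psmb1, a core subunit, had ratios of 0.28, 0.07, 0.31 and 0.36 (fold change 0.26, unadjusted p = 0.0453, adjusted p = 0.79).

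**Figure D3:**
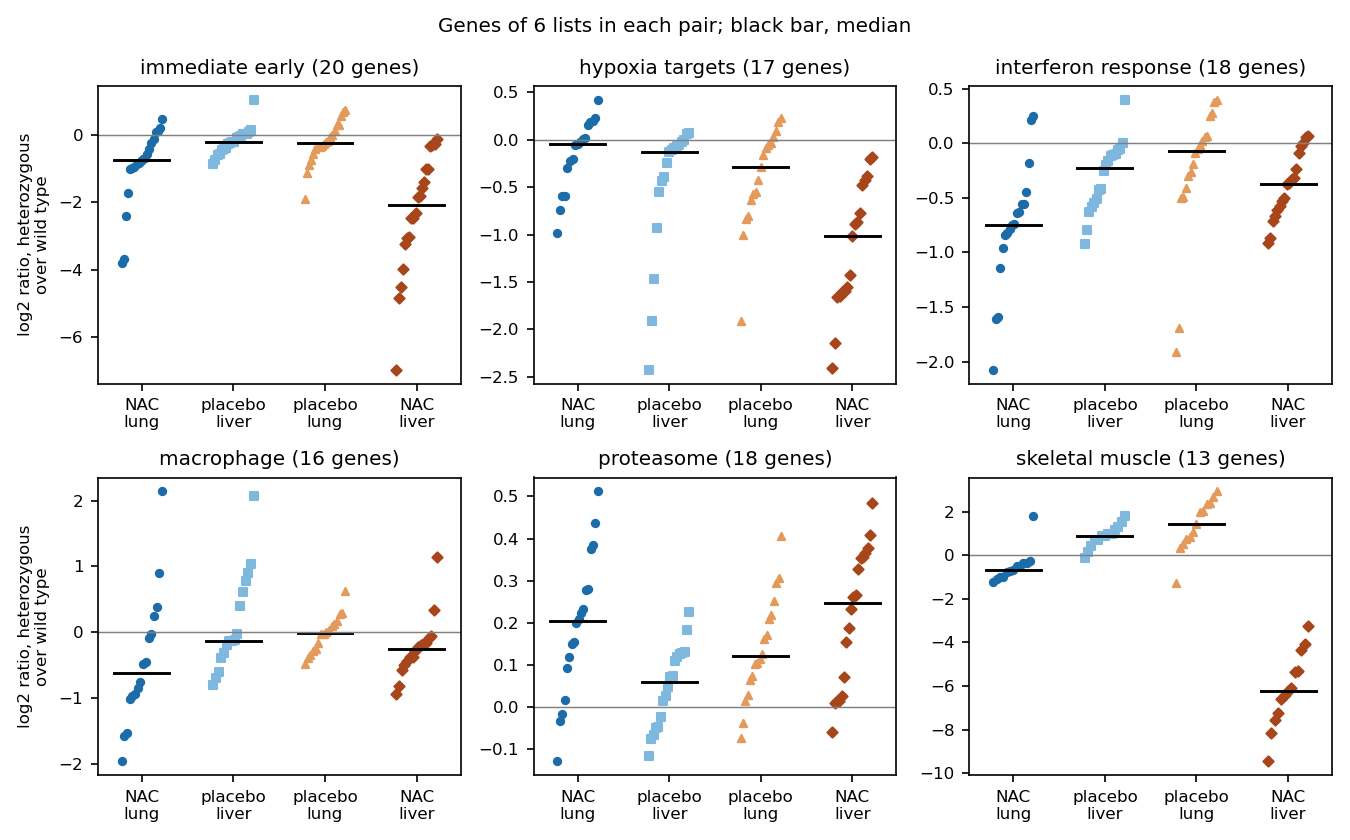
Log2 ratios of heterozygous over wild type for the genes of 6 lists in each pair; each point is a gene, sorted by value within a pair, and the black bar is the median. Immediate early and hypoxia genes reached their lowest medians in the NAC liver pair (-2.07 and -1.02), interferon and macrophage genes in the NAC lung pair (-0.75 and -0.63), proteasome subunits had medians from 0.06 to 0.25 (with 0 subunits higher in all 4 pairs under library size scaling), and skeletal muscle genes lie lowest in the NAC liver pair, whose wild type library was needed for 13 rather than 9 of them to be tested.

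The wild type library of the NAC liver pair held skeletal muscle transcripts. In the 3 other pairs, 8 immediate early (40%), 7 hypoxia (41.2%), 7 macrophage (43.8%) and 10 interferon genes (55.6%) were lower throughout. A gene lower in all 4 pairs is lower in any 3, so leaving out a pair could not make these counts fall. In those 3 pairs 14.1% of all genes were lower throughout, against 8.28% in all 4 pairs. Proteasome subunits higher in the 3 pairs numbered 10, against 12.6% of all genes.

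The 4 pairs otherwise resembled each other little. Across 9904 genes averaging 10 CPM or more, which are not independent replicates, the log2 ratios of the placebo lung and NAC liver pairs had a Pearson r of 0.24 and a Spearman rho of 0.36, and the other 5 combinations had an r from -0.07 to 0.11. The SD of the log2 ratio was 0.60 in the NAC liver pair, 0.47 in the NAC lung pair and 0.35 in both placebo pairs.

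**Figure D4:**
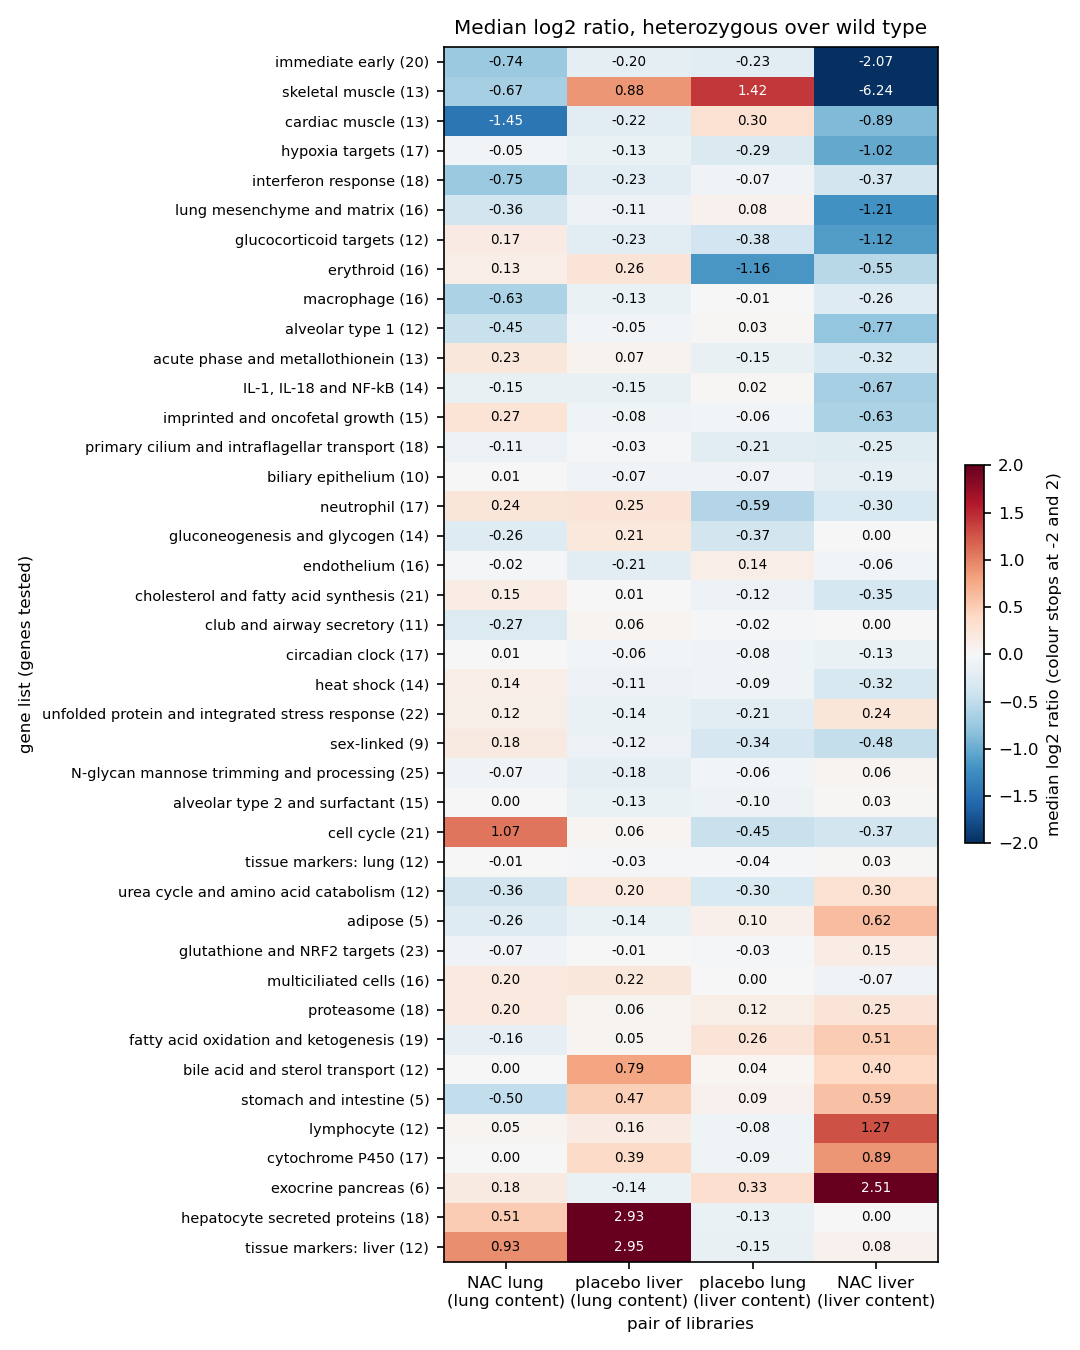
Median log2 ratio of heterozygous over wild type for each gene list with at least 5 genes tested (rows, genes tested in brackets) in each pair (columns), with blue for lower and red for higher in heterozygous libraries. Immediate early genes were the list lowest in the 4-pair fit and had a negative median in every column, liver secreted proteins and liver markers, lists that include Alb, were high in the placebo liver pair (2.93 and 2.95), and cell cycle genes were high in the NAC lung pair (1.07).

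In the lung-content pairs, the genes with the smallest p-values included the liver secreted proteins Kng1, Ambp and Apof, higher in heterozygous libraries, and Ppp1r3b, Aox3 and Spink5, lower. No gene passed (0% with an adjusted p under 0.05), 447 of 14186 had an unadjusted p under 0.05, and DESeq2 called 13. In both pairs 0.374% of genes were at least 2-fold higher and 0.134% at least 2-fold lower. Kng1, kininogen, had 21 and 51 counts in the wild type and heterozygous NAC lung libraries and 11 and 73 in the placebo liver libraries, against 5297 to 7174 CPM in liver-content libraries. Ambp, a plasma protein precursor, had 11 and 25 counts and 6 and 33 counts. Apof, an apolipoprotein, had 3 and 11 counts and 2 and 14 counts.

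Of 17 hepatocyte secreted proteins, with Alb left out because it chose the libraries, 5 were at least 2-fold higher and 1 at least 2-fold lower in heterozygous pups in the NAC lung pair, where 2.37% of all genes were higher and 5.72% lower by that much. In the placebo liver pair 15 were at least 2-fold higher and 0 lower, beside 1.81% and 0.846% of all genes. Trf, transferrin, the most abundant of the 17 in lung-content libraries, went the other way, at 636 and 599 CPM and at 263 and 215 CPM. Whether a trace of liver RNA or expression in lung gave these counts was not tested. Kcnq1ot1, a nuclear antisense RNA of an imprinted locus, stood at 13.2 and 38.4 CPM and at 9.57 and 45.6 CPM, and moved together with the share of Rn45s given above. The part of that share in the Kcnq1ot1 result was not tested.

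Lower in both lung-content pairs was Ppp1r3b, a subunit that directs protein phosphatase to glycogen, on chromosome 8 (35375739 to 35388139). It stood at 39.2 and 14.1 CPM in the NAC lung pair and at 30.6 and 7.25 CPM in the placebo liver pair, with both heterozygous libraries under both wild type ones (fold change -1.77 ± 0.25, unadjusted p = 0.000134, adjusted p = 0.95). It was also lower in liver-content pairs (ratios -0.23 and -1.03). Aox3, an aldehyde oxidase, stood at 29.5 and 16.3 CPM and at 28.8 and 17.7 CPM. Spink5, a protease inhibitor of stratified epithelia, stood at 49.2 and 28.8 CPM and at 57.4 and 20.9 CPM. Gm5643 had 33 and 79 counts in the wild type libraries and 0 in both heterozygous ones, at least 6.99-fold and at least 16-fold lower at a floor of 3 counts per library.

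In the liver-content pairs, the genes with the smallest p-values included Ndufa4l2, the lipid phosphatase gene Lpin1 and the erythroid gene Sptb, lower in heterozygous libraries, and Inhbe and Tkfc, higher. No gene passed (0%), but 1714 of 14186 genes had an unadjusted p under 0.05, and DESeq2 called 104 (23 higher, 81 lower). In both pairs 0.282% of genes were at least 2-fold higher and 0.5% at least 2-fold lower. Ndufa4l2, a mitochondrial protein induced by low oxygen, stood at 14.1 and 1.95 CPM in the placebo lung pair and at 93.7 and 29.8 CPM in the NAC liver pair. Its fold change was -2.08 ± 0.27 (unadjusted p = 6.89e-05, adjusted p = 0.15). In lung-content pairs its ratios were -0.31 and -0.60. The hypoxia list as a whole had 4 of 17 genes higher in the placebo lung pair. An exon of the antisense gene Shmt2 overlaps it, and whether counting used the strand is not given.

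Lpin1, which makes diacylglycerol and acts with a coactivator of fatty acid oxidation, stood at 77.7 and 23.1 CPM and at 373 and 117 CPM (fold change -1.71 ± 0.23, adjusted p = 0.15). Sptb, erythroid beta spectrin, stood at 192 and 75.5 CPM and at 587 and 250 CPM (fold change -1.29 ± 0.18, adjusted p = 0.15). Of 16 erythroid genes tested, 9 were at least 2-fold lower in the placebo lung pair, beside 2.11% of all genes, and 0 in the NAC liver pair, beside 5.33%, and 0 were at least 2-fold higher in either. The median erythroid ratio was -1.16 and -0.55 in these pairs, and 0.13 and 0.26 in the lung-content pairs. Newborn mouse liver still makes red cells, and a smaller erythroid share and less RNA per erythroid cell cannot be told apart.

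Inhbe, the beta E subunit of an activin secreted by hepatocytes, lies on chromosome 10 (127348857 to 127354411) and stood at 17.9 and 77.1 CPM in the placebo lung pair and at 7.67 and 21.6 CPM in the NAC liver pair. Both ratios were above 1 (2.09 and 1.47), with a fold change of 1.82 ± 0.24 (unadjusted p = 0.000159, adjusted p = 0.15). Tkfc, which phosphorylates triose sugars from fructose, stood at 150 and 278 CPM and at 108 and 241 CPM, so that both heterozygous libraries were above both wild type ones. Its exons overlap Ddb1 and Cyb561a3 on the other strand. Among amylase entries with the symbol Amy2a5, 3 of 4 held the same values (12.7 and 42.7 CPM, then 4.12 and 15.4 CPM), so reads of these copies could not be told apart.

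Tmem100, a membrane protein of lung endothelium, stood at 1.20 and 0.16 CPM in the placebo lung pair and at 2.99 and 0.41 CPM in the NAC liver pair, against 88.3 to 140 CPM in lung-content libraries. The heterozygous liver-content libraries held 2 and 5 counts of it and their wild type partners 15 and 32. Slc34a2, the phosphate transporter of alveolar type 2 cells and a marker in the lung list, went the other way: 8 and 28 counts in the placebo lung pair and 6 and 48 counts in the NAC liver pair. Summed lung markers in liver-content libraries were 62.9 and 54.7 CPM in the NAC liver pair and 42.2 and 41.6 CPM in the placebo lung pair, with at most 2 of 12 markers at 0 in any library.

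The genotype difference was then compared between contents. By edgeR's quasi-likelihood test 0 genes (0%) had an adjusted p under 0.05, 1089 had an unadjusted p under 0.05, and DESeq2 called 36 (1 higher, 35 lower in the liver-content minus lung-content difference). Irs2, the insulin receptor substrate of liver, stood at 66.6 and 82.0 CPM and at 15.5 and 22.1 CPM in wild type and heterozygous lung-content libraries, and at 42.4 and 21.8 CPM and at 95.4 and 36.1 CPM in liver-content ones. It was higher in heterozygous pups in both lung-content pairs and lower in both liver-content pairs, a difference of -1.58 ± 0.25 (unadjusted p = 0.000235, adjusted p = 0.63). Trim59 (ratios 1.36, 0.48, -0.99 and -0.90), a tripartite motif ubiquitin ligase, and Mpo (1.56, 0.93, -0.65 and -0.41), the myeloperoxidase of neutrophil precursors, had the same outline.

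The opposite outline was shown by Cxcl12, a chemokine that retains blood progenitors (ratios -0.73, -0.30, 0.46 and 1.15), by Prom1, a membrane protein of progenitor and duct cells (-0.57, -0.02, 0.81 and 1.49), and by Adamts15, a matrix protease (-0.09, -0.26, 0.99 and 1.00). Cxcl12 lies on chromosome 6 (117168535 to 117181367) and stood at 102 and 61.5 CPM, 204 and 165 CPM, 224 and 308 CPM, and 120 and 266 CPM. Its difference between contents was 1.31 ± 0.31 (adjusted p = 0.63).

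Between NAC and placebo pairs, 0 genes (0%) passed for the difference in genotype ratio, 374 had an unadjusted p under 0.05 and DESeq2 called 1. Each treatment is represented by 1 pair of each content. Angptl4, an inhibitor of lipoprotein lipase induced by fasting, stood at 69.5 and 22.8 CPM in the NAC lung pair and at 121 and 58.6 CPM in the NAC liver pair. In the placebo liver pair it stood at 36.2 and 52.4 CPM and in the placebo lung pair at 95.3 and 105 CPM, so the NAC pairs were lower and the placebo pairs higher in heterozygous libraries. Gdf15, a stress-induced hormone, had 275 and 22 counts in the NAC liver pair and 14 and 1 in the NAC lung pair, a ratio of 8.89 with a 95% counting interval from 1.35 to 376. It had 22 and 11 counts in the placebo liver pair and 20 and 53 in the placebo lung pair. Hhex, a transcription factor of liver and endothelial progenitors, had ratios of 1.21 and 0.81 in the NAC pairs and -0.14 and -0.11 in the placebo pairs.

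Single pairs had their own large differences, which rest on 1 library a side. In the NAC liver pair 4.45% of genes were at least 2-fold higher and 5.33% at least 2-fold lower in the heterozygous library. The wild type library held 1358 CPM of 16 summed skeletal muscle genes, against 20.0 CPM in its heterozygous partner and 20.8 to 121 CPM in the other 6 libraries. Myh8, the perinatal myosin heavy chain, was at 346 and 0.33 CPM. Of the 13 muscle genes tested, 9 would also have reached the minimum for testing without this library, so how many of the 13 were lower is no support. In this pair 15 of 20 immediate early genes were at least 2-fold lower. The part of muscle RNA in the other differences of this pair was not tested.

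In the same pair, liver metabolic lists went different ways. Of 17 cytochrome P450 genes tested, 8 were at least 2-fold higher and 1 lower, and their summed level was 1584 CPM in wild type and 4501 CPM in heterozygous. Of 21 sterol and fatty acid synthesis genes 3 were at least 2-fold lower and 0 higher, with sums of 3459 and 2421 CPM. Their median ratio in this pair was -0.35, beside 0.001 for all genes. Gluconeogenesis and glycogen genes summed to 9653 and 6319 CPM with 3 at least 2-fold lower and 0 higher. Urea cycle and amino acid catabolism genes summed to 5167 and 5036 CPM, while their median ratio was 0.30, with 2 of 12 at least 2-fold higher and 0 lower. Cyp1a2, a drug-metabolizing enzyme that rises after birth, had 7 and 705 counts, while the placebo lung pair held 407 and 825. Exocrine pancreas transcripts summed to 28.5 and 126 CPM, with Ctrb1, chymotrypsinogen, at 4 and 364 counts, and 8 of 12 lymphocyte genes tested were at least 2-fold higher.

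In the NAC lung pair 2.37% of genes were at least 2-fold higher and 5.72% lower. Of 21 cell cycle genes, 12 were at least 2-fold higher and 0 lower, and their sum was 205 CPM in wild type and 388 CPM in heterozygous. Aurkb, a mitotic kinase, had a ratio of 1.90 and Cdk1, the mitotic cyclin-dependent kinase, 1.29. Of 13 cardiac muscle genes tested, 10 were at least 2-fold lower, with sums of 520 and 180 CPM. Hspa1a and Hspa1b, inducible heat shock proteins, had ratios of 1.36 and 2.50 here and were lower in the other 3 pairs. Tgoln2, a trans-Golgi protein with a close paralog, Tgoln1, had 263 and 3 counts, a ratio of 55.7 with a 95% counting interval from 18.8 to 272.

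In the placebo liver pair 1.81% of genes were at least 2-fold higher and 0.846% lower. Among genes averaging 10 CPM or more in the pair, the largest ratio was that of Afp, the fetal albumin, at 2.04 and 30.2 CPM (ratio 3.78). In the placebo lung pair 1.63% of genes were at least 2-fold higher and 2.11% lower. Scd1, the desaturase that makes oleate, had the lowest ratio there among genes averaging 10 CPM or more in the pair, at 88.4 and 14.8 CPM (ratio -2.56), and stood at 242 and 103 CPM in the NAC liver pair. Thrsp, a lipogenic regulator, had 12 and 1 counts in the placebo lung pair, a ratio of 12.3 with a counting interval from 1.82 to 526, and 70 and 9 counts in the NAC liver pair. Insig1, a sterol-responsive protein of the endoplasmic reticulum, had ratios of -0.98 and -1.48 in these liver-content pairs. Of 21 sterol and fatty acid synthesis genes, 3 were lower and 0 higher in all 4 pairs.

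Sex-linked transcripts differed within pairs, and the labels give no sex for the pools. In the placebo liver pair Xist stood at 558 CPM in wild type and 142 CPM in heterozygous, and the Y-linked genes Ddx3y, Eif2s3y, Uty and Kdm5d had ratios from 1.68 to 1.98. In the NAC liver pair the same Y-linked genes had ratios from -1.05 to -1.85 with Xist at 228 and 362 CPM, and in the placebo lung pair from -0.34 to -1.03 with Xist at 301 and 491 CPM. In the NAC lung pair they ran from -0.82 to 0.70. Sex and genotype cannot be told apart within a pair, and no sex-linked gene was called over 4 pairs.

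Medians of multiciliated, surfactant and airway genes did not keep one sign in all 4 pairs. Those of the primary cilium and intraflagellar transport list were under 0 in each (-0.11, -0.03, -0.21 and -0.25). Multiciliated genes had medians of 0.20 and 0.22 in lung-content pairs, and 0.00 and -0.07 in liver-content pairs. In liver-content libraries they summed to only 8.3 to 12.6 CPM, with 4 to 6 of 16 genes at 0. Of 16 genes of multiciliated cells, 1, Dnah11, a dynein arm heavy chain, was higher in all 4 pairs (ratios 0.25, 0.29, 0.29 and 0.17, at a mean of 5.87 CPM, adjusted p = 0.83), and 0 were lower. Foxj1, the regulator of motile cilia, had ratios of -0.32, 0.31, -0.35 and 0.77. Of 18 genes of the primary cilium and intraflagellar transport, 3 (16.7%) were lower in all 4 pairs, beside 8.28% of all genes. Among them was Arl13b, a ciliary membrane GTPase (ratios -0.71, -0.02, -0.43 and -0.41, fold change -0.39, unadjusted p = 0.0526). Ift74, a transport subunit, had ratios of -0.20, 0.11, 0.33 and -0.04. The 15 surfactant and type 2 genes had a median fold change of -0.03. Lpcat1, which remodels surfactant lipid, had ratios of -0.72, -0.13, -0.48 and -0.42, and Hopx, a marker of type 1 cells, had ratios of -0.79, -0.17, -0.28 and -0.68.

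Around Man1a2, 98 other tested genes lie within 5 Mb on chromosome 3. Of these 4 were higher and 9 lower in all 4 pairs, 3 had an unadjusted p under 0.05 and 0 an adjusted p under 0.05, and the median fold change was -0.01. Among all genes tested, 7.25% were higher and 8.28% lower in all 4 pairs, and 5.94% had an unadjusted p under 0.05. The 3 neighbours with an unadjusted p under 0.05, named after their values were seen, are adjoining steroid dehydrogenase genes 1.77 to 1.87 Mb away. Hsd3b6 and Hsd3b1 had fold changes of -2.10 and -0.64, and Hsd3b3 had 0.91. In the placebo lung and NAC liver pairs the ratios were -2.68 and -1.57 for Hsd3b6, -0.84 and -0.45 for Hsd3b1 and 0.76 and 1.11 for Hsd3b3. These genes are close in sequence, so the division of reads among them is uncertain.

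**Figure D5:**
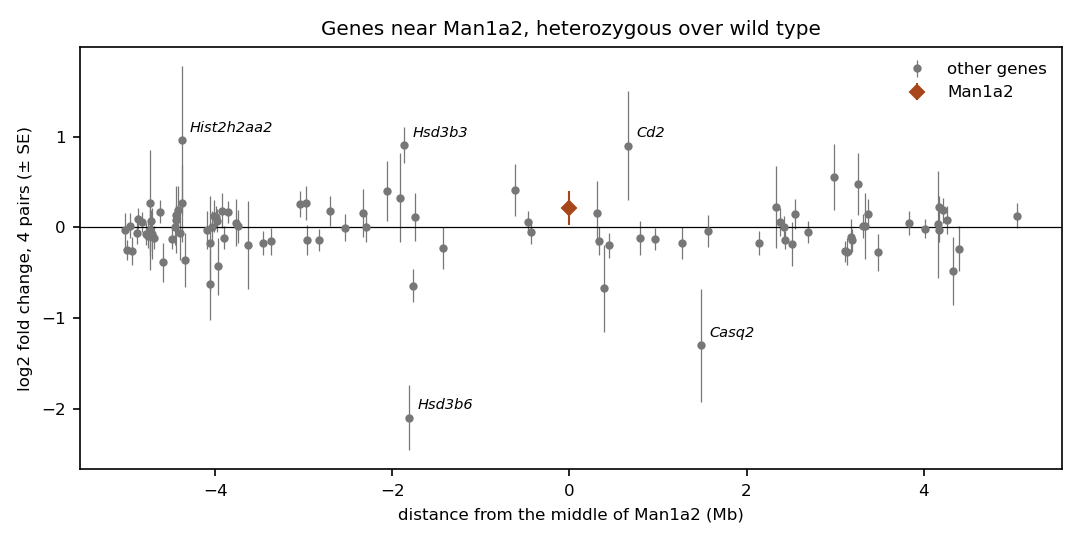
Fitted log2 fold change over 4 pairs (± SE) of the tested genes within 5 Mb of Man1a2, against distance from the middle of that gene; Man1a2 is the brown diamond at 0.21. The 98 neighbours centre on a median of -0.01, with Hsd3b6 lowest at -2.10 and Hsd3b3 at 0.91 beside it.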

How the data were processed

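Per the labels, RNA pooled from 3 experiments was made into stranded polyA libraries and sequenced. The authors deposited estimated counts for each gene symbol without normalization, made by trimming adapters, aligning reads to mouse GRCm38 and keeping uniquely mapped reads; strand use and annotation release are not given in the sources used here. The submitters' processing notes name R 4.0.3, edgeR 3.30.3 and build mm10. Of the values of the 8 libraries, 6.5% to 8.13% were not whole, and all were rounded. The table holds 25054 entries, 329 symbols sit on 962 of them, and entries were kept apart.

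Entries averaging 1 CPM or more were fitted with edgeR 4.0.16 (R 4.3.3): TMM scaling over the 8 libraries, quasi-likelihood test, pair as block, and Benjamini-Hochberg adjusted p-values under 0.05. Separate terms gave each content and the differences between contents and between treatments. The design was written for counts and kept for estimated counts. Heterozygous and wild type libraries were paired by treatment, label and content. Lung and liver libraries of one genotype and treatment may come from the same pups, which would make p-values too small. The p-values measure the spread of the genotype ratio between pairs. As no group was sequenced more than once, that spread holds differences between contents or treatments that have no term of their own, as well as differences between pools. A count at or under 3 per library was treated as the floor, and intervals cover counting error only. DESeq2 1.42.0, other scalings, filters and left-out pairs were alternatives. The fit was tested on simulated data. The members, the 45 gene lists and the tests were chosen with earlier results of these data known. Named genes are, per comparison and direction, those of smallest p with one sign in all its pairs, per pair the largest ratio each way among genes averaging 10 CPM or more in the pair, up to 4 per list, the targeted gene, tissue markers, sex-linked genes and genes the study names; others are said to be named after their values were seen. Of the mitochondrially encoded genes 0 were tested. Positions and exon overlaps come from GENCODE on GRCm38. Python 3.11.15, pandas 2.3.3, numpy 2.4.6, scipy 1.17.1 and matplotlib 3.10.9 were used for the rest.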

Additional observations from a re-analysis of the deposited data

Results flagged for a closer look

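Among 60 sets of 4 pair ratios (43 list medians and 17 genes), 3 had a pair farther from the rest than Dixon's 95% critical value allows, and chance flags about 1 in 20 sets. Chil3 had a log2 ratio of -0.30 in the NAC liver pair, against -1.19 to -1.29 in the other 3. The list of esophagus and skin epithelium, with 3 genes tested, had a median of -1.41 in the NAC lung pair, and the list of thyroid and thymus, also with 3 genes tested, a median of -0.55 in the placebo lung pair.

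For 3 lists the medians, each at least 0.1 in size, pointed one way in both lung-content pairs and the other way in both liver-content pairs, a difference that was not tested for the lists. Erythroid genes had medians of 0.13 and 0.26 in lung-content pairs and -1.16 and -0.55 in liver-content pairs, with a median fold change of -0.34 over 4 pairs. Neutrophil genes had medians of 0.24 and 0.25 against -0.59 and -0.30, with -0.15 over 4 pairs. Adipose genes, 5 of which were tested, had medians of -0.26 and -0.14 against 0.10 and 0.62, with 0.06 over 4 pairs. The same outline with a median nearer to 0 in the placebo liver pair was found for cell cycle genes (1.07 and 0.06 against -0.45 and -0.37), acute phase and metallothionein genes (0.23 and 0.07 against -0.15 and -0.32), and cholesterol and fatty acid synthesis genes (0.15 and 0.01 against -0.12 and -0.35).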

How the results depend on the processing

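The count of genes past an adjusted p of 0.05 was 0 in each of the 5 comparisons and stayed 0 with relative log expression factors, TMM within each content, at least 10 counts in 4 libraries, no replicate block, summed symbols, or ribosomal and globin symbols removed. In the order 4 pairs, lung-content pairs, liver-content pairs, difference between contents and difference between treatments, it was 23, 13, 104, 36 and 1 with DESeq2's Wald test, and 243, 82, 362, 141 and 136 with a coefficient of variation fixed at 0.2 in place of an estimate. With any gene that had a count it was 1 for lung-content pairs, 71 for liver-content pairs, 1 for the difference between contents and 1 for that between treatments, and with library size alone it was 4 for the last. Leaving out 1 pair at a time gave 0 to 1 genes over 4 pairs, 0 to 13 in lung-content pairs, 0 to 421 in liver-content pairs, 0 to 194 for the difference between contents and 0 to 516 for that between treatments. The highest of these came without the placebo lung pair (13, 421 and 194) and without the NAC lung pair (516); the lone pair left in a content or treatment is then assumed to vary like the others, and the cause was not tested. Genes at 2-fold or more the same way in all pairs numbered 3 with a prior count of 0.5 and 2 with library size alone, and 7 to 11 in the 3 pairs left when 1 was left out.

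Apart from Man1a2, the named genes followed under alternatives were chosen for one sign, or for separated ratios, in the pairs concerned of these same libraries. Their direction could therefore hardly turn, and how often it held is no support. Of 904 values of these genes under alternatives, 903 kept their direction, 153 of them past the threshold where the value reported was not. The exception was Cyp2c37, a cytochrome P450, whose difference between treatments was 3.15 and ran from -1.78 without the placebo lung pair to 5.75 without the NAC liver pair. Slc2a1 ranged from -0.92 to -0.72, Mthfd2 from -1.0 to -0.89, Gpx3 from -1.04 to -0.74 and Chil3 from -1.24 to -0.88 over 14 alternatives each, and each of the 4 passed with DESeq2 and with the fixed coefficient of variation and with no other. Library size alone moved the median fold change of all genes to -0.12 over 4 pairs, -0.33 in lung-content pairs and 0.41 for the difference between contents. The labels number no replicates, so no replicate pairing beyond the pairs used was possible. Depth limits genes near the floor, such as Fgf23 outside the NAC liver pair. List counts under other scalings and without each pair were added after seeing the data.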
